A study of Rattus norvegicus with 12 samples.

Results

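Oncostatin M and interleukin-6 reach the cell through a small set of receptor chains, kinases and a transcription factor, and 10 genes of this route are described here in rat liver. They are Osm, Osmr, Lifr, Il6r, Il6st, Jak1, Jak2, Tyk2, Stat3 and Socs3. They were taken by symbol from the annotation of the array, and all 10 were among the 18166 named genes that could be tested. Each was represented by 1 transcript cluster, the array's unit of measurement for a gene, so no choice between clusters was needed. The set was chosen on the measured fall of Osmr on these arrays, which was known beforehand, as was the value of Stat3. The values of Osmr are therefore a description without a test.

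Liver RNA came from 12 male obese Zucker rats, 1 rat per array. All of them carried 2 copies of the fa allele, which makes the leptin receptor defective, so the controls carry this defect too. The leptin receptor is itself a relative of gp130. Their age was 5 to 6 weeks when feeding began, and they were killed on day 29. The 6 control rats ate a diet without supplement, and the 6 PSC rats ate one of similar energy and nutrient content with 5% PSC. PSC is the labels' name for a biotechnological product grown on an agricultural side stream, which the series title describes as oyster mushroom. The profiled rats were drawn at random from feeding groups of 12, caged in groups of 2, and cage mates are not marked in the labels, so the 6 rats of a diet may not be fully independent.

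Oncostatin M is a cytokine of macrophages and neutrophils that binds gp130, the product of Il6st, together with a second chain encoded by Osmr or, depending on the species, Lifr. Interleukin-6 binds its own receptor, encoded by Il6r, which then recruits gp130. The receptor tails carry the kinases Jak1, Jak2 and Tyk2, which phosphorylate Stat3, and Stat3 then switches on acute phase genes in hepatocytes together with Socs3, whose product blocks the receptor complex again.

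The deposited values are log2 signals made by the authors with RMA, and the medians of the 12 arrays lay between 4.71 and 4.85. The number of arrays limits the precision. Over all 18166 genes PSC feeding went with 343 falls (1.89%) and 130 rises (0.716%) at an adjusted p below 0.05 (limma with Benjamini-Hochberg adjustment, n = 6 per diet), together 2.6% of the genes. Median centring of the arrays gave 584 lower and 82 higher, so that 12.3% of the changed genes were higher in place of 27.5%. With 1 array left out the total was 735 (PSC replicate 4), 531 (control replicate 2), 392 (PSC 2), 339 (PSC 3), 298 (control 5) or 252 (control 3). Leaving out 1 of the other arrays gave 206 (PSC 1), 199 (PSC 5), 188 (control 6), 164 (control 4), 160 (PSC 6) or 142 (control 1). On the first principal component PSC replicate 4 was the PSC array closest to the controls (-1.57, against 6.68 or more in the other PSC arrays). The PSC arrays spread to both sides on the second. PSC replicates 2 and 5 had 21.2 and 11.7 there, replicates 1, 3 and 6 had -13.5, -10.1 and -11.8, and replicate 4 had 3.43. The controls lay between -7.75 and 6.39. The hepatocyte markers Alb, Ttr, Cps1, Tat and Serpina1 were bright on all arrays, with a mean log2 signal of 12.08 to 12.30 over the list.

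Osmr, a receptor chain for oncostatin M that also forms the interleukin-31 receptor with Il31ra, was lower in every PSC-fed rat than in any control. On the 6 control arrays its log2 signal had a lowest value of 7.11, a median of 7.68 and a highest value of 8.30. On the 6 PSC arrays the lowest was 5.73, the median 6.21 and the highest 6.90. The means were 7.68 ± 0.44 and 6.22 ± 0.41 (SD, n = 6). The difference was -1.46 log2 units (SE 0.20, 95% interval -1.90 to -1.03), or 2.76-fold lower in PSC-fed rats (transcript cluster 17745625). PSC replicate 4 held the highest PSC value, and without it the log2 fold change was -1.60. Ordered by log2 fold change from the most negative, Osmr stood in place 8 of the 18166 genes. The lowest control (replicate 2) and the highest PSC array (replicate 4) came closest, at 7.11 and 6.90.

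Osmr also varied widely between rats on the same diet. Its pooled SD within the diets, 0.42, was larger than that of 99.1% of all genes. Socs3 (0.32) and Il6r (0.25) were likewise among the more variable genes, above 97.0% and 91.9% of all genes. Jak1 was among the steadiest, with an SD of 0.058 that only 1.97% of genes fell below.

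**Figure D1:**
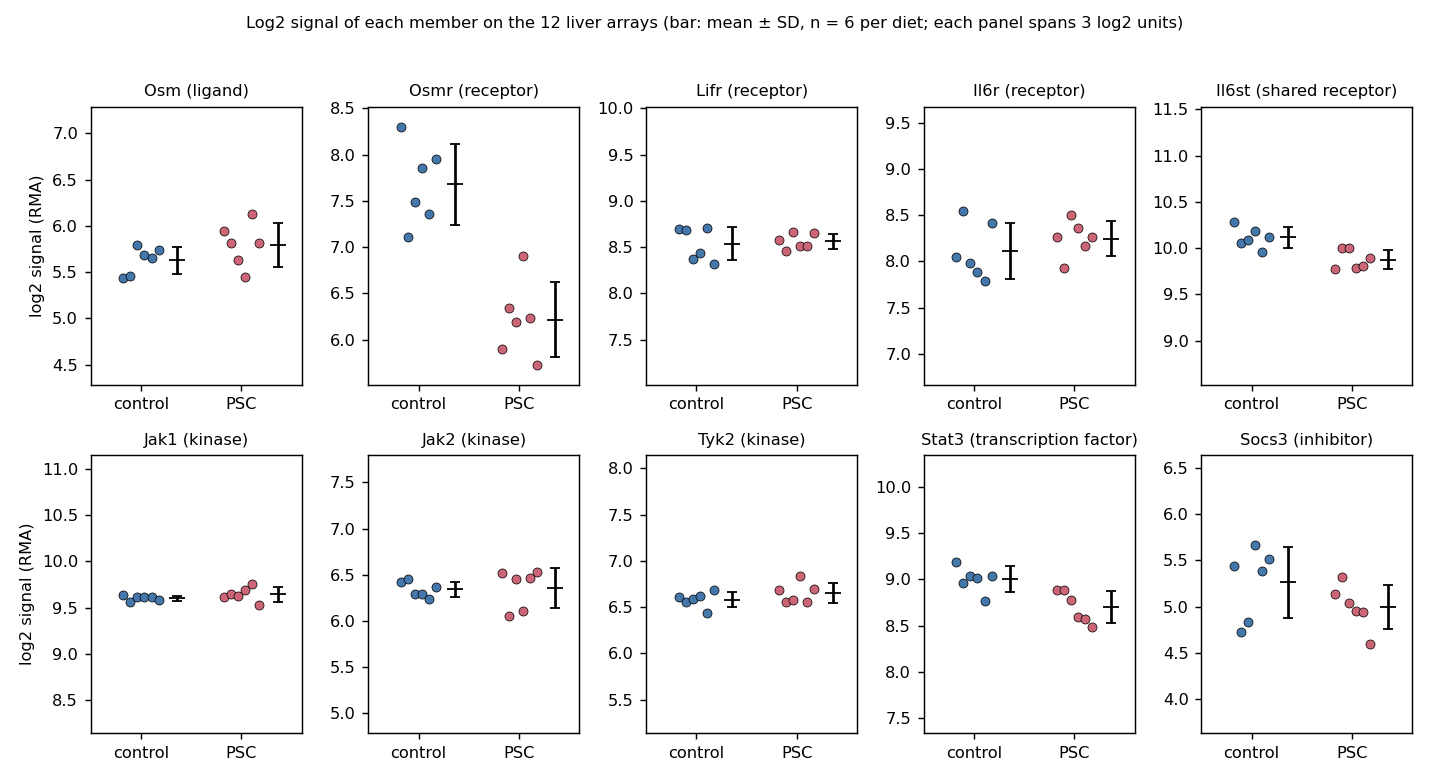
Log2 signal (vertical axis) of the 10 genes on each of the 12 liver arrays, with controls in blue and PSC-fed rats in red, replicates 1 to 6 from left to right, and the mean with SD as a bar. All panels span the same number of log2 units: only in the Osmr panel do the diets not overlap (7.11 to 8.30 in controls, 5.73 to 6.90 in PSC-fed rats).

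Osmr and Lifr lie side by side on rat chromosome 2, and the sequence around their starts is shown here because these neighbours encode the alternative second chains for oncostatin M, and 1 of them carries the difference described above. Each line gives RefSeq's window from 250 bases before the start of the gene to 50 after it, 5′ to 3′ on the strand of the gene (assembly GRCr8; Osmr chr2:57688512-57688811, minus strand; Lifr chr2:57963139-57963438, plus strand). Capitals mark matches to TGANTCA and to the GC box GGGCGG, which reads CCGCCC on the other strand. TGANTCA is a loose form of the AP-1 site with its middle base left free. A match to it, such as TGATTCA, need not be an AP-1 site.
Osmr: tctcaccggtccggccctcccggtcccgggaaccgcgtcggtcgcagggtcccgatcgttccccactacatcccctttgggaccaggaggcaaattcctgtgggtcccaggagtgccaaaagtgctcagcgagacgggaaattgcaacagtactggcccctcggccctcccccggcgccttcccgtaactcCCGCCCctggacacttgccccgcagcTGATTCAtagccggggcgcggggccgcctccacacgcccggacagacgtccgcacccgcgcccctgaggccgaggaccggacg
Lifr: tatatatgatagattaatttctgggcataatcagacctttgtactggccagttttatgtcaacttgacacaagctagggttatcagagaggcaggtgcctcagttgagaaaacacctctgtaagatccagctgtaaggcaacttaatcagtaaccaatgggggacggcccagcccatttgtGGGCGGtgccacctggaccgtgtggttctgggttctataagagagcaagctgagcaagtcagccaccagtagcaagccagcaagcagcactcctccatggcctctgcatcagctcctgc
The Osmr window held TGATTCA starting 33 bases before the start and a GC box starting 59 bases before it. The Lifr window held a GC box starting 69 bases before it. Windows were found for 7 members (Il6r, Il6st, Jak2, Lifr, Osmr, Socs3 and Stat3). Among these, TGANTCA stood only in Osmr, against 7.33% of all 33469 windows, and the GC box in Osmr, Lifr, Il6r and Jak2, against 33.1%. The STAT letters TTCNNNGAA stood in 0 of the 7 and in 8.87% of all windows. The searches covered both strands, and the motifs were picked after the windows had been read. A match or its absence describes these letters in this window only.

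The other receptor chains did not pass the test. Lifr, which also serves leukaemia inhibitory factor, went from 8.54 ± 0.18 to 8.56 ± 0.08 (log2 signal, SD, n = 6), with 8.32 to 8.71 in controls and 8.46 to 8.66 in PSC-fed rats. Its log2 fold change was 0.023 (95% interval -0.15 to 0.19, adjusted p = 0.896 in limma), so that a fall of the size seen in Osmr lies outside its interval. Under median centring its value was -0.022. Il6r, the chain that binds interleukin-6, had values of 7.79 to 8.55 (median 8.02) in controls and 7.93 to 8.50 (median 8.27) in PSC-fed rats. The log2 fold change of Il6r was 0.14 (95% interval -0.14 to 0.41, adjusted p = 0.593), with full overlap of the diets.

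Il6st, whose product gp130 serves both oncostatin M and interleukin-6, did not pass the threshold, though its interval lay below 0. Its log2 signal had a lowest value of 9.96, a median of 10.11 and a highest value of 10.28 in controls, and 9.77, 9.85 and 10.00 in PSC-fed rats. Of the 6 PSC arrays 4 lay below every control, and PSC replicates 2 and 3, both at 10.00, lay above the lowest control, so the diets overlapped. The log2 fold change was -0.24 (SE 0.067, 95% interval -0.38 to -0.096, adjusted p = 0.0718 in limma), or 1.18-fold lower. The call depended on the processing. Il6st passed when only genes with a mean log2 signal of at least 5 were tested (adjusted p = 0.0357 in limma). It also passed with median centring (adjusted p = 0.0427) and with a variance prior that follows the signal (adjusted p = 0.0338). With other processing it did not pass, at adjusted p of up to 0.163. Without 1 array it passed in 0 of 12 fits (adjusted p from 0.0614 to 0.1535).

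Osm itself, the ligand, did not pass the test. It ranged from 5.44 to 5.79 (median 5.67) in controls and from 5.45 to 6.13 (median 5.81) in PSC-fed rats, and 4 of the 6 PSC arrays lay above every control. The log2 fold change was 0.17 (95% interval -0.052 to 0.39, adjusted p = 0.397 in limma).

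Of the 3 kinases none passed, adjusted or not (unadjusted p of 0.282 or more in limma). Jak1 had 9.56 to 9.64 in controls and 9.53 to 9.76 in PSC-fed rats, with a log2 fold change of 0.042 (95% interval -0.070 to 0.15, adjusted p = 0.697 in limma). For Jak2 the controls lay between 6.24 and 6.45 and the PSC arrays between 6.05 and 6.53, a wider range on both sides, and the log2 fold change was 0.012 (95% interval -0.18 to 0.20, adjusted p = 0.958). Under median centring Jak1 and Jak2 had -0.0033 and -0.033. Tyk2 had 6.44 to 6.68 and 6.55 to 6.84, with a log2 fold change of 0.072 (95% interval -0.065 to 0.21, adjusted p = 0.568).

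Stat3, the transcription factor downstream of gp130, was close to the threshold as Il6st was. The value of Stat3 was known when the set was chosen, so its test is no independent evidence. Its log2 signal had a lowest value of 8.77, a median of 9.03 and a highest value of 9.19 in controls, and 8.49, 8.69 and 8.89 in PSC-fed rats. Of the PSC arrays 3 lay below every control (replicates 4, 5 and 6), and only control replicate 5 lay within the range of the PSC arrays. The log2 fold change was -0.30 (SE 0.086, 95% interval -0.49 to -0.12, adjusted p = 0.074 in limma), or 1.23-fold lower, which did not pass. It passed in the same 3 settings as Il6st. Its adjusted p in limma was 0.0417 with the filter on dim genes, 0.0392 with median centring and 0.042 with the other variance prior. With other processing it did not pass, at adjusted p of up to 0.129. Without 1 array it passed in 0 of 12 fits (adjusted p from 0.0524 to 0.159).

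Socs3, the feedback inhibitor, overlapped broadly between the diets. Its controls ran from 4.73 to 5.67 (median 5.42), with replicates 2 and 3 at 4.73 and 4.83 and the other 4 at 5.39 or above. The PSC arrays ran from 4.60 to 5.32 (median 5.00), and 1 of them lay below every control. The log2 fold change was -0.26 (95% interval -0.60 to 0.076, adjusted p = 0.387 in limma), an interval wide enough to hold both no difference and a fall larger than the value of Stat3.

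**Figure D2:**
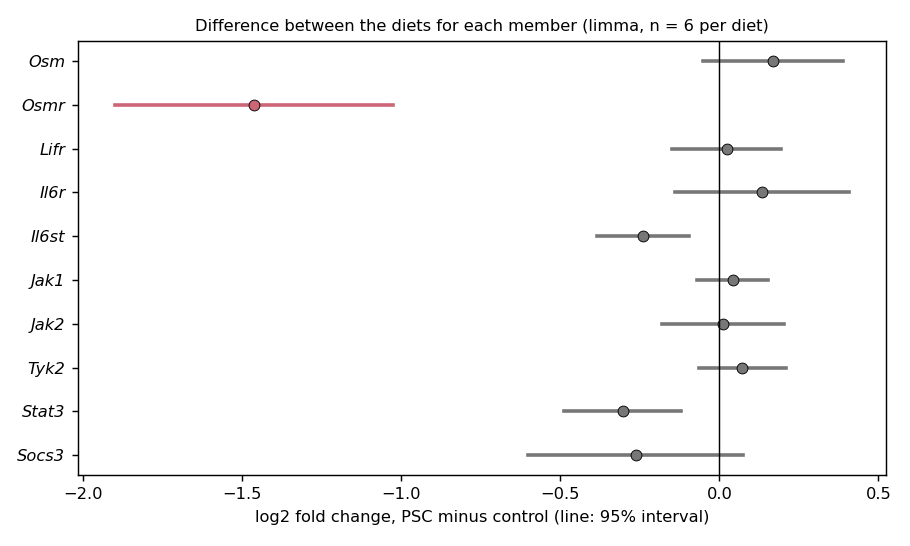
Log2 fold change between the diets (PSC minus control, horizontal axis) of the 10 genes, as points with 95% intervals from limma (n = 6 per diet). Osmr lies at -1.46, Stat3 and Il6st at -0.30 and -0.24 with intervals below 0, and the intervals of the other 7 genes include 0.

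Of the 10 genes 1, Osmr, was thus called at an adjusted p below 0.05 and 1 did not overlap between the diets, the gene the set was built around. Over all genes 2.6% were called, 1.89% as lower, and 2.19% did not overlap, 1.48% with the PSC arrays lower. Since Osmr decided the choice, nothing is read from its own count. At an adjusted p below 0.1 Il6st and Stat3 were called as well, beside 6.28% of all genes. The value of Stat3 was also known beforehand, so nothing is read from its call. The 10 log2 fold changes had a median of 0.018, against 0.013 over all genes, with 4 below 0 (Osmr, Stat3, Socs3 and Il6st) and 6 above. In bulk tissue, fewer cells of a type and less RNA per cell cannot be told apart, for these genes and those that follow.

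Whether Stat3 and Socs3 follow their receptor from rat to rat was examined within each diet, because Osmr separates the diets into groups that do not overlap and a pooled correlation would mostly reflect the diet. Among the 6 controls Osmr and Stat3 had a Pearson r of 0.74 (exact permutation p = 0.0917) and a Spearman rho of 0.84 (exact permutation p = 0.0444). Adjusted over the 4 relations computed these p-values became 0.30 and 0.178, so neither passed. Leaving out controls 1 and 2, the arrays farthest from the median of Osmr, gave an r of 0.70. For Osmr and Socs3 among controls r was 0.71 (exact permutation p = 0.15, adjusted 0.30) and rho 0.71 (exact permutation p = 0.136, adjusted 0.272), with 0.60 after leaving out the same arrays.

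Among the 6 PSC-fed rats neither relation passed. Osmr and Stat3 had an r of -0.042 (exact permutation p = 0.95, adjusted 0.95) and a rho of 0.14 (exact permutation p = 0.803, adjusted 0.803). Without PSC replicate 4, the rat with the most Osmr but a Stat3 value of 8.59, r was 0.41, and without PSC replicate 6, lowest in both, it was -0.61. Osmr and Socs3 had an r of 0.32 (exact permutation p = 0.554, adjusted 0.739) and a rho of 0.31 (exact permutation p = 0.564, adjusted 0.752). That r was 0.71 without PSC replicate 4 and -0.34 without PSC replicate 6. After leaving out both of these arrays, r was -0.30 for Stat3 and 0.18 for Socs3. Whether the relation differs between the diets was not tested, and with 6 rats per diet a relation of moderate strength could be missed.

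**Figure D3:**
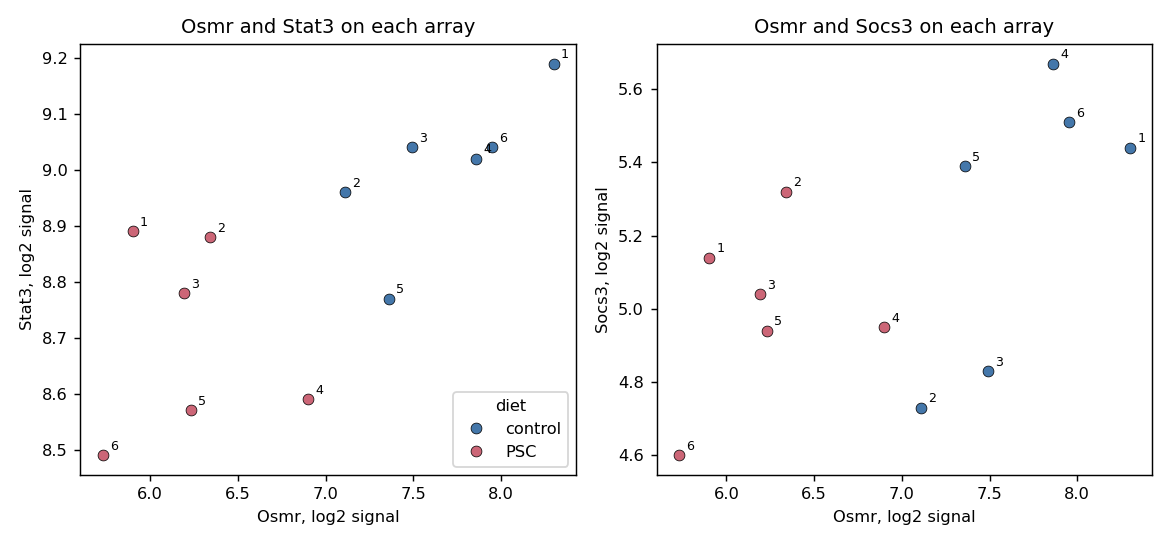
Log2 signal of Osmr (horizontal axis) against Stat3 (left) and Socs3 (right) on each array, with replicate numbers beside the points, controls in blue and PSC-fed rats in red. The diets do not overlap along the Osmr axis, and within the controls r is 0.74 for Stat3 and 0.71 for Socs3, neither past the test.

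With each diet centred on its own mean, the 9 other members ranged widely in their likeness to Osmr over the 12 arrays. Jak1 (r = 0.57) and Socs3 (r = 0.55) were most like it, above 86.3% and 85.4% of 10071 genes with a mean log2 signal of at least 5, not counting Osmr and genes named only by a LOC or RGD number. Jak2 was least like it (r = -0.46, above 9.31% of genes). The genes most like Osmr on this measure were Exoc4 of the exocyst (r = 0.96), the ubiquitin ligase gene Pja2 (0.95), Dusp16, a phosphatase of MAP kinases (0.95), Slc35e2b (0.94) and the nuclear pore gene Nup210 (0.94). These r values are the highest of 10071 and are a description. Of these 5 genes Dusp16 also fell with the diet, from 8.17 ± 0.14 to 7.63 ± 0.18 (log2 fold change -0.53, adjusted p = 0.00952 in limma).

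Genes next to the receptor genes on the chromosome were compared to see whether a whole stretch moved. Rictor, on the other side of Osmr from Lifr, had a log2 fold change of -0.13 (adjusted p = 0.357 in limma), and Egflam, beyond Lifr, had 0.20 (adjusted p = 0.231). Il6st lies between Ankrd55, at 0.020 (adjusted p = 0.898), and Il31ra, at 0.16 (adjusted p = 0.461). Osm lies between Castor1, at -0.057 (adjusted p = 0.771), and Lif, a cytokine of the same family, at 0.013 (adjusted p = 0.958). None of these neighbours passed, and the signs of Ankrd55 and Lif turned with other normalizations. All of them but Rictor had mean log2 signals of 3.4 to 4.5 in either diet, in the dim range of the array. Their values therefore say little about whether a stretch moved.

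The wider pathway was read from 6 lists with 64 genes, of which 56 were measured and 8 were not analysed here. Of the 56, 3 fell, 2 rose and 51 did not pass, which is 8.93% called where 2.6% of all genes were. Of the 5 called genes Lbp, Orm1 and Lrg1 were known from these data when the lists were written, so the share is no independent evidence. The median log2 fold change of the 56 was -0.065, against 0.013 over all genes. Counts at an unadjusted p below 0.05 are given below without the share of all genes at that level, so nothing is read from them. With control replicate 2 left out the count of 5 became 8, and with PSC replicate 4 left out it became 7. It was 4 without control 3, PSC 2 or PSC 3, and 3 without control 1. Leaving out 1 of the other arrays gave 2 (control 5, PSC 5 or PSC 6) or 1 (control 4, control 6 or PSC 1).

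None of the 7 measured ligands passed in limma, 1 had an unadjusted p below 0.05, and their median was 0.013. Clcf1, a cytokine that signals through the Cntfr chain, Lifr and gp130, had -0.27 (95% interval -0.46 to -0.081, adjusted p = 0.113 in limma), and passed without control replicate 1 (adjusted p = 0.0468). Il6 and Il11 had 0.14 and 0.13 (adjusted p = 0.313 and 0.357), with mean log2 signals of 3.52 to 3.81 in either diet, in the dim range of the array. Of 4 measured receptor chains 1 rose, where 0.716% of all genes did, and the median was 0.14. Cntfr, the chain that binds ciliary neurotrophic factor, went from 5.15 ± 0.16 to 5.48 ± 0.09 (log2 fold change 0.33, SE 0.077, adjusted p = 0.0372). It lost the threshold when any 1 of control replicates 1, 4, 5 and 6 or PSC replicates 1, 2, 5 and 6 was left out (adjusted p from 0.0563 to 0.0796). Il11ra1 and Il31ra had 0.12 and 0.16.

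Of 5 measured JAK and STAT genes and 15 inhibitors none passed in limma, with medians of -0.083 and -0.065 and with 2 and 1 members at an unadjusted p below 0.05. Jak3, a kinase of lymphoid cells, had -0.22 (adjusted p = 0.175 in limma), Stat6, which serves interleukin-4, had -0.21 (adjusted p = 0.232), and Stat5b had -0.083 (adjusted p = 0.476). Among the inhibitors the phosphatase gene Ptpn2 had -0.23 (adjusted p = 0.139), Socs7 0.16 (adjusted p = 0.274) and Socs6 -0.13 (adjusted p = 0.334).

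The early response genes of Stat3 held 1 fall among 9 measured members, where 1.89% of all genes fell. Of the 9, 8 had values below 0, with a median of -0.27 against 0.013 over all genes. An unadjusted p below 0.05 in limma was found for 6 of the 9, all with values below 0. The share of all genes at that level is not given here. Bcl3, which encodes a nuclear partner of NF-kB subunits, had 6.25 to 6.94 in controls and 5.46 to 6.20 in PSC-fed rats, without overlap. It went from 6.64 ± 0.26 to 5.92 ± 0.32 (log2 fold change -0.72, SE 0.15, adjusted p = 0.0228 in limma). It lost the threshold when any 1 of control replicates 1, 4 and 6 or PSC replicate 1 was left out (adjusted p from 0.0503 to 0.0625). Timp1, an inhibitor of matrix proteases, and Icam1, an adhesion molecule, had -0.54 and -0.37 (adjusted p = 0.067 and 0.0771), and both passed without control replicate 2 or without PSC replicate 4 (adjusted p from 0.0167 to 0.0475). Several of these genes also answer to NF-kB and other signals.

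Acute phase genes that hepatocytes switch on under interleukin-6-type cytokines mostly did not pass the test, with 2 lower, 1 higher and 13 not passing among 16, where 1.89% of all genes were lower and 0.716% higher. Their median was -0.067, and 4 had an unadjusted p below 0.05 in limma, a level whose share over all genes is not given here. Lbp, which encodes the lipopolysaccharide-binding protein, had 10.99 to 11.52 in controls and 9.97 to 10.87 in PSC-fed rats (log2 fold change -0.86, SE 0.15, adjusted p = 0.0125 in limma). The acid glycoprotein gene Orm1 fell by 0.37 on the log2 scale (SE 0.079, adjusted p = 0.0267) and Lrg1 rose by 0.44 (SE 0.10, adjusted p = 0.035), both without overlap between the diets. Orm1 lost the threshold when any 1 of control replicates 1, 4, 5 and 6 or PSC replicates 1, 5 and 6 was left out (adjusted p from 0.0508 to 0.0625), and Lrg1 when any 1 of control replicates 3, 4, 5 and 6 or PSC replicates 1, 3, 5 and 6 was (adjusted p from 0.0503 to 0.0767).

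**Figure D4:**
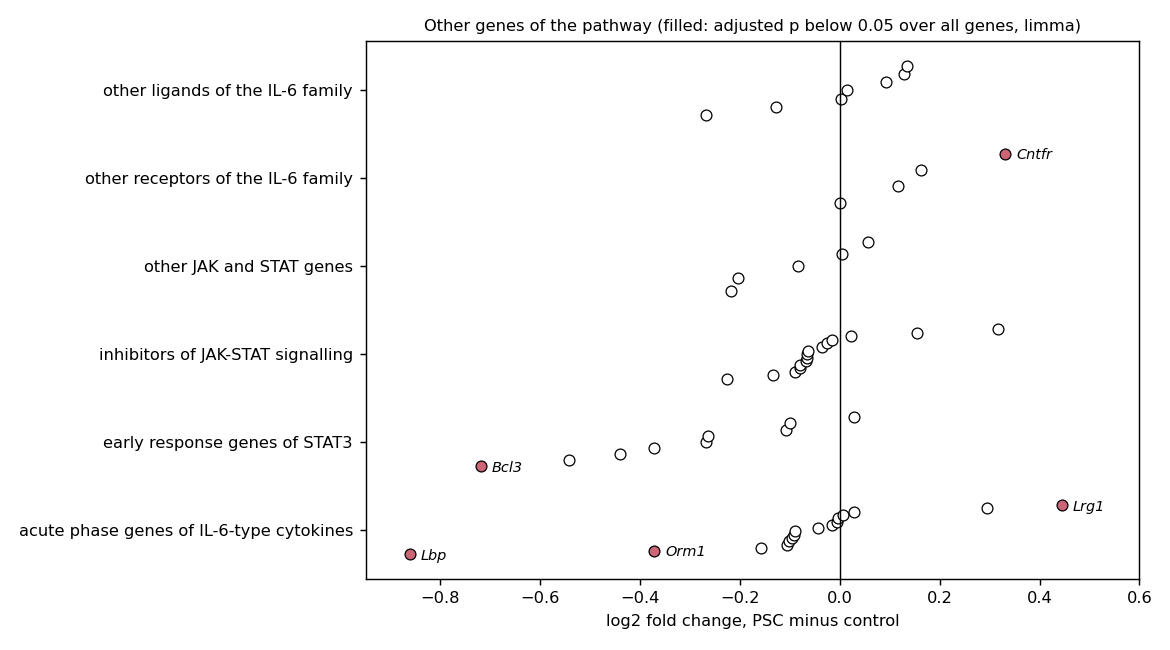
Log2 fold change (PSC minus control, horizontal axis) of 56 further genes of the pathway in 6 lists, 1 point per gene, filled where the adjusted p over all genes was below 0.05 in limma. The 5 filled points are Bcl3, Lbp and Orm1 below 0 and Cntfr and Lrg1 above it.

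Some markers of other liver cells passed the test, where 1.89% of all genes fell and 0.716% rose. The marker lists were also chosen with earlier results of these data known, so their counts are no independent evidence. Of 8 markers of stellate cells, the matrix-forming cells of the liver, 3 fell (Dcn by 0.88, Rgs5 by 0.48 and Col3a1 by 0.30 on the log2 scale, adjusted p = 0.0144, 0.0314 and 0.0484 in limma) and all 8 had values below 0. The mean log2 signal of that list was 7.22 to 7.51 in controls and 6.87 to 7.32 in PSC-fed rats. PSC replicate 4, highest in Osmr among the PSC arrays, was also highest there, at 7.32 against 6.99 or less in the others. Over all genes it was likewise the PSC array closest to the controls on the first principal component. Rgs5 lost the threshold when any 1 array was left out other than control replicate 2 and PSC replicates 2 and 4 (adjusted p from 0.0517 to 0.0765), and Col3a1 when any 1 was left out other than control replicate 2 and PSC replicate 4 (adjusted p from 0.0771 to 0.102). Col3a1 also lost it with all transcript clusters, a second quantile normalization, cyclic loess and array weights (adjusted p = 0.0811, 0.0547, 0.0651 and 0.0530), and Rgs5 with all clusters (adjusted p = 0.0559). Of 8 markers of macrophages, a source of oncostatin M, 1 rose (Cd163 by 0.87, adjusted p = 0.0436) and all 8 had values above 0, with list means of 6.44 to 7.57 and 7.49 to 7.89. Cd163 lost the threshold when any 1 of control replicates 3, 4, 5 and 6 or PSC replicates 1, 3, 5 and 6 was left out (adjusted p from 0.0532 to 0.0885), with all clusters (adjusted p = 0.0726) and with the other variance prior (adjusted p = 0.0629).

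Among the remaining markers, 1 of 5 for lymphocytes rose (Nkg7 by 0.51, adjusted p = 0.0266 in limma), and it lost the threshold when any 1 of control replicates 1 and 6 or PSC replicates 5 and 6 was left out (adjusted p from 0.0592 to 0.0699). None of 5 hepatocyte, 5 neutrophil, 2 endothelial, 4 bile duct and 5 pancreas markers passed in limma, and 0, 1, 1, 2 and 1 of them had an unadjusted p below 0.05. Neutrophil list means were 3.78 to 3.86 in controls and 3.67 to 3.88 in PSC-fed rats, in the dim range of the array. Pancreas list means (3.68 to 4.12 in controls, 3.84 to 4.11 in PSC-fed rats) and the bile duct markers Krt19, Krt7 and Sox9 were dim too. That no neutrophil, pancreas or bile duct marker passed therefore says little about those cells. The part of these cells in the values of Osmr, Il6st and Stat3 was not tested.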

How the data were processed

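RNA from the livers of 12 rats was measured on Affymetrix Rat Gene 2.0 ST arrays. The authors deposited log2 signals, 1 for each transcript cluster; RMA in Expression Console made them, per the submitters' processing notes. The sources used here give no version, library file or build. RMA corrects background, makes the arrays' distributions alike and summarises probes, which compresses differences of dim genes. Of 30347 clusters, 18511 had 1 gene symbol, 575 several and 11261 none in the annotation used; genes with several clusters took the brightest, leaving 18166.

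Diets were compared with limma 3.58.1 in R 4.3.3 (linear model, empirical Bayes, two-sided, Benjamini-Hochberg over all genes, threshold 0.05), which was tested on simulated data. Correlations used exact two-sided permutation over 720 pairings (Python 3.11.15). Sequences are RefSeq's (GRCr8); all 10 members matched by gene number. Figures used matplotlib 3.10.9.

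Members and lists were chosen with earlier results of these data known. Named are all members, every pathway gene called, the 3 smallest p per pathway list, the 5 genes most like Osmr, adjacent genes and called cell markers.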

Additional observations from a re-analysis of the deposited data

Results flagged for a closer look

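In 48 groups of 6 arrays (the 10 genes and the 14 list means in each diet), 1 value stood far from the others of its group. Chance gives about 1 in 20 groups, so 1 in 48 is no more than chance would give. The flagged value was the mean log2 signal of the stellate cell markers on PSC replicate 4, 7.32. The next PSC array had 6.99 and the lowest 6.87. On the same array Osmr was highest among the PSC-fed rats (6.90). Over all genes that array was also the PSC array closest to the controls on the first principal component.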

How the results depend on the processing

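The log2 fold change of Osmr, a description, was -1.51 to -1.43 over 10 other settings and -1.60 to -1.34 over the 12 fits without 1 array. The count of called members was 3 (Osmr, Il6st and Stat3) with the filter on dim genes, median centring, the variance prior with trend, and a threshold of 0.1; it was 1 in the other settings and in every fit without 1 array. The count over all genes was 254 with all transcript clusters, 769 with the filter on dim genes, 1140 at a threshold of 0.1, 225 without PSC replicates 2 and 5 (chosen after seeing the data) and 142 to 735 without 1 array. For the pathway genes it was 3 with all clusters, 8 with the filter, 8 at 0.1, 2 without PSC replicates 2 and 5, and 1 to 8 without 1 array. With the replicate block, 94 genes, 1 member and 0 pathway genes passed in limma (15 pathway genes at an unadjusted p below 0.05); Lbp, Bcl3, Orm1, Lrg1 and Cntfr had adjusted p of 0.0504, 0.0598, 0.0988, 0.0891 and 0.0988 there, and Dusp16, Rgs5, Cd163 and Col3a1 0.0504, 0.0701, 0.0988 and 0.0990. Lrg1 and Cntfr also lost the threshold with all clusters (0.0614 and 0.0647), and Lrg1 with median centring (0.0510). Without PSC replicates 2 and 5, Orm1, Lrg1, Cntfr, Nkg7, Cd163, Rgs5 and Col3a1 lost it (0.0548 to 0.144). Same-numbered arrays deviated together at r of -0.151 to 0.111, 1 of 6 pairs above 0.1 and 1 of 6 best with its own number, so the numbers were not taken as pairs.

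Signs that turned belonged to values near 0. Under median centring Lifr had -0.022, Jak1 -0.0033, Jak2 -0.033, Ankrd55 -0.025 and Lif -0.032. With quantile normalization again Ankrd55 had -0.043 and Lif -0.044, with cyclic loess -0.045 and -0.055, and without PSC replicates 2 and 5 -0.010 and -0.063. Without 1 array Lifr ranged from -0.020 to 0.058, Jak2 from -0.023 to 0.073, Ankrd55 from -0.017 to 0.051 and Lif from -0.057 to 0.093. Osmr with Stat3 had a Spearman rho of 0.84 in controls (unadjusted exact permutation p = 0.0444) and 0.14 in PSC-fed rats; Pearson's r was 0.31 over all 12 arrays after centring each diet (exact permutation p = 0.342), and its value in PSC-fed rats without 1 array ranged from -0.61 to 0.41. Osmr with Socs3 in PSC-fed rats ranged from -0.34 to 0.71. The cause of these changes was not tested beyond what fewer genes or arrays bring about.

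Over the named genes and alternatives, leaving out Exoc4, Pja2, Slc35e2b and Nup210, which were not refitted, 728 values kept direction and side of the threshold, 84 lost the threshold, 15 gained it and 23 changed sign. The number of arrays sets the precision; the depth of signal over background is not given in the values.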
